A study of Hylyphantes graminicola with 5 samples.

Results

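Trissin is a neuropeptide precursor, and in the brain of the spider Hylyphantes graminicola it is encoded by the gene model evm.TU.CTG-804.8, 1 of 19195 genes counted in the data. The gene was chosen by its identifier after its counts in these libraries were known, so its levels are given as a description. Single cells came from pooled brains of mixed-aged adults, with 35 to 40 brains in each of 3 female and 2 male libraries. No genotype, strain or treatment is given by the labels, and sex was the only difference between the groups that they name. Because brains were pooled, the replicates are libraries and not animals. Unique molecular identifiers (UMIs) count captured RNA molecules, and levels of summed cells are given as counts per 1000000 UMIs (CPM).

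Neuropeptides are cut from precursor proteins, stored in dense-core vesicles and released to act on receptors of other cells, most of them coupled to G proteins. Trissin was identified in insects as a cysteine-rich peptide held together by disulfide bridges, with a G-protein-coupled receptor of its own. In insects several neuropeptides of this kind are made by few, strongly expressing neurons, and 1 neuron can make more than 1 precursor. The role of Trissin in spiders is not described by the sources used here.

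Quality limits kept 31145 of 40233 barcodes, between 3296 and 8139 per library, with median depths from 1925 UMIs in female replicate 2 to 3096 UMIs in female replicate 3. Of these cells, 28674 were neurons, 1182 hemocytes, 769 glia and 236 fat body cells. These classes rest on cluster numbers carried over from cells annotated by the study, all of them in female replicate 3. In all, 156 barcodes occurred in more than 1 library. Female replicate 2 stood apart in its low Trissin counts, and class levels and shares are given with and without it.

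Almost all Trissin RNA was in 13 cells. The kept cells held 24130 Trissin UMIs, and 23206 of these (96.2%) were in 13 cells with 53 to 6406 UMIs each. These cells were 0.0417% of all kept cells (exact 95% binomial interval 0.0222 to 0.0714), or about 1 cell in 2396. The next cell had 11 Trissin UMIs, and the one after it had 6. The limit of 50 UMIs for these 13 cells (called Trissin cells here) was set in this gap after the counts were seen, so nothing that follows tests it.

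**Figure D1:**
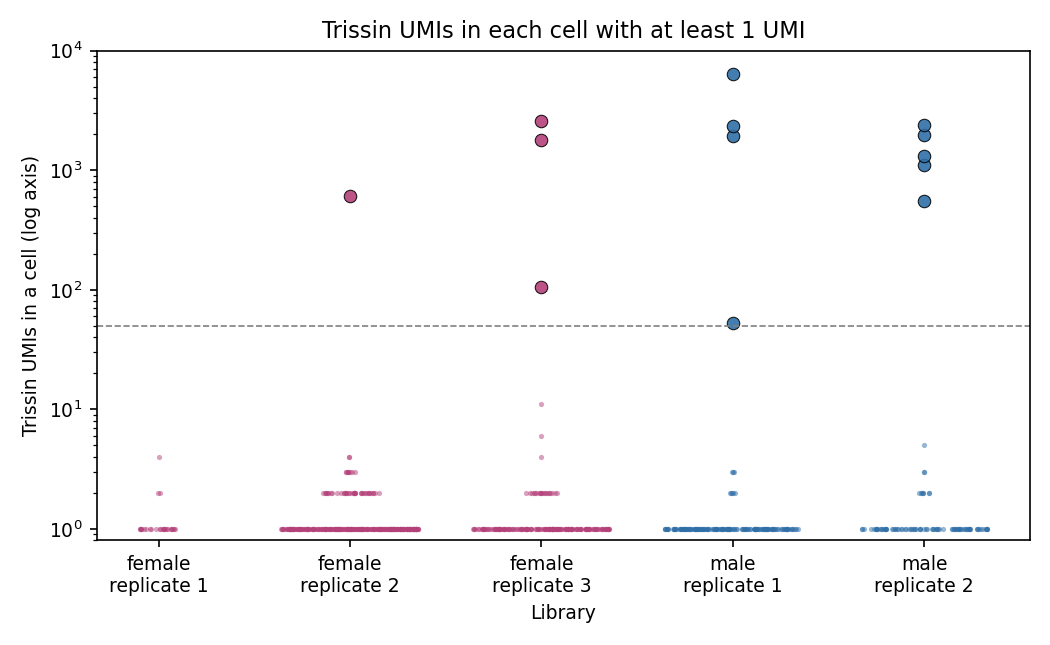
Trissin UMIs (vertical log axis) of each cell with at least 1 UMI, by library, with female libraries in pink and male libraries in blue. Large points above the dashed line at 50 UMIs are the 13 Trissin cells, and the small points below it reach no higher than 11 UMIs.

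The Trissin cells were spread over 4 of the 5 libraries. Female replicate 1 had none among 3296 cells, which allows a share of up to 0.0910%. Female replicate 2 had 1 cell, with 613 Trissin UMIs. Female replicate 3 had 3 cells, with 2606, 1801 and 106 UMIs.

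Male replicate 1 had 4 Trissin cells, with 6406, 2360, 1931 and 53 UMIs. Male replicate 2 had 5, with 2370, 1983, 1322, 1099 and 556 UMIs. The counts of cells, 0, 1 and 3 in females against 4 and 5 in males, did not overlap. The shares of kept cells were 0%, 0.0210% and 0.0390% in the female libraries and 0.0552% and 0.0614% in the male libraries. The exact binomial intervals of the 4 shares above 0 all overlapped. For the difference of mean shares an exact two-sided permutation test over the 5 libraries gave p = 0.2, where the 10 possible splits allow no p below 0.1.

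In these cells Trissin was the leading product. It took 2.49% to 40.7% of a cell's UMIs, with a median of 20.2%. It was the most abundant gene outside the mitochondrial genome in 12 of the 13 cells, and the most abundant gene of all in 9. The largest share, 40.7%, was in cell 2 of male replicate 2, with 1983 of 4875 UMIs. The smallest, 2.49%, was in cell 5 of the same library, the deepest of the 13 with 22355 UMIs. Cells are numbered within a library by falling Trissin count.

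Most Trissin cells were deep for their library, also with the Trissin UMIs left out. Their totals without Trissin ran from 887 to 21799 UMIs with a median of 6780, against a median of 2697.5 in other neurons, and 9 of the 13 lay above the 80th percentile of their own library on that measure. Below their library's median were 3 cells, cell 3 of female replicate 3 (887 UMIs), cell 4 of male replicate 1 (1245 UMIs) and cell 3 of male replicate 2 (2223 UMIs). In these 3 Trissin made up 10.7%, 4.08% and 37.3% of all UMIs. None of the 13 was among the cells called doublets, and none of their barcodes occurred in a second library. Mitochondrial genes took 6.59% to 39.7% of their UMIs without Trissin, with a median of 16.8%, and a median of 20.9% in other neurons.

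The Trissin cells carried neuronal markers, though some less often than other deep neurons. Syt1, the synaptic vesicle calcium sensor, was present in 13 of 13 cells, and in 100% (rounded) of the 12712 other neurons with at least 3000 UMIs. The RNA-binding protein gene elav was present in 9 of 13 cells and in 93.1% of those neurons, the active-zone gene brp in 9 and in 57.1%, and the vesicle fusion gene nSyb in 5 and in 50.6%. Of 5 genes for peptide processing and release, the dense-core vesicle gene IA-2_S1 was present in 13 cells (94.3% of those neurons), Cadps, which primes dense-core vesicles for release, in 8 (90.6%), the protease gene FUR11_S2 in 7 (48.6%), the carboxypeptidase gene CBPM_S1 in 4 (48.6%) and svr in none (1.06%). Without Trissin 4 of the 13 cells had fewer than 3000 UMIs, so these shares are not matched in depth.

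Markers of other cell types were low. All 5 glial markers (Gat, Eaat2, moody, SPARC and Tsf1) were at 0 in all 13 cells. Of 5 hemocyte markers, Hml_3 and NATT4_1 each gave 1 UMI in 1 cell and the others were at 0. The 6 fat body markers were each present in at least 1 cell, at no more than 3 UMIs. FASN1 was present in 9 cells and in 53.4% of the deep neurons, AdenoK in 7 and in 30.8%, Mcad in 6 and in 25.5%, Ahcy in 4 and in 18.4%, ACC in 1 and in 13.04%, and AcCoAS in 1 and in 1.42%. Their part in the results was not tested.

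Most of the classical transmitter genes examined were nearly absent from the 13 cells, with Ddc as the exception. Gad1, which makes GABA, was at 0 in all of them, as were the monoamine transporter Vmat, the serotonin enzyme Trh, the octopamine pathway enzymes Tdc2 and Tbh, and the tyrosine hydroxylase gene ple. The acetylcholine transporter VAChT gave 1 UMI in 1 cell. Ddc, the decarboxylase shared by dopamine and serotonin synthesis, was present in 5 cells at up to 9 UMIs and had a UMI in 7.15% of the deep neurons. The level of Ddc was 161 CPM in the 13 cells (mean over cells, Trissin UMIs left out) and 28.9 CPM in the deep neurons, summed. Most of the genes examined were also rare in the deep neurons, where Gad1 was found in 3.90%, VAChT in 12.8% and Vmat in 0.677% of cells. ChAT and VGlut, which the study used for cholinergic and glutamatergic neurons, were not examined here.

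Other neuropeptide precursors were present beside Trissin in most cells, but in no common set. Of the 70 other precursors of the study, 34 had at least 1 UMI in a Trissin cell and 16 reached 10 UMIs in one. Only cell 3 of female replicate 3 and cell 4 of male replicate 1, the shallowest, had no second precursor at 10 UMIs. The 13 cells held 0 to 10 other precursors at 10 UMIs, and neurons of like depth in their libraries a median of 0 to 7. Like depth means within 1.25 times the total without Trissin. Depending on the cell, 4.08% to 100% of these neurons had as many or more. Trissin outnumbered the next precursor in 12 of 13 cells, by 2.13 times in cell 2 of male replicate 1 and by 106 times in cell 3 of female replicate 3, where the next precursor had 1 UMI.

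Mip, a precursor of myoinhibitory peptides, was the most frequent companion, with at least 10 UMIs in 8 of the 13 cells. All 8 were male. Among neurons of like depth in their libraries, 2.57% to 17.3% had 10 or more Mip UMIs. In male replicate 1 Mip had 94, 168, 14 and 4 UMIs in cells 1 to 4. In male replicate 2 it had 234, 25, 15, 61 and 20 UMIs in cells 1 to 5. The 4 female cells had 0 UMIs (female replicate 2) and 2, 0 and 0 UMIs (female replicate 3).

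Mip itself was not missing from female brains. At least 10 Mip UMIs were found in 3.25% to 4.69% of neurons in the 3 female libraries and in 6.06% and 4.44% in male replicates 1 and 2. Neurons of like depth in female replicate 3 (within 1.25 times the total without Trissin) had 10 or more Mip UMIs in 9.03% and 10.8% of cases for its cells 1 and 2. With 4 female cells from 2 libraries, the sex pattern of Mip in Trissin cells has no test. AstB, a second gene for peptides of the Mip family, had 68, 10, 5, 11 and 6 UMIs in the 5 cells of male replicate 2, 6 UMIs each in cells 1 and 2 of male replicate 1, and none in the other 6 cells.

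**Figure D2:**
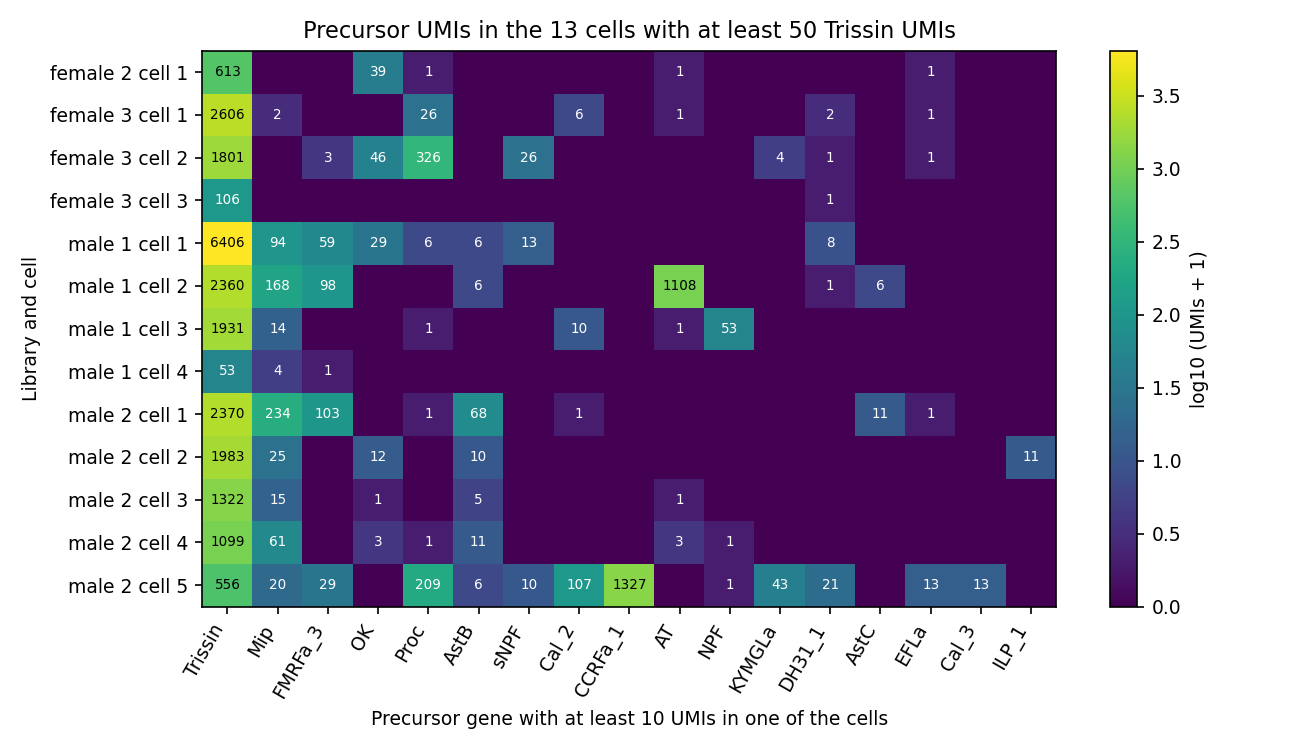
UMIs of Trissin and of the 16 other precursors with at least 10 UMIs in one of the 13 Trissin cells, with a row per cell, numbers for the UMIs and colour for log10 (UMIs + 1). Trissin fills the first column in each row, Mip is at 4 to 234 UMIs in the 9 male cells and at 0 to 2 in the 4 female cells, and no other column is filled throughout.

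FMRFa_3, an FMRFamide-type precursor, followed Mip in part. It had 59 and 98 UMIs in cells 1 and 2 of male replicate 1 and 103 and 29 UMIs in cells 1 and 5 of male replicate 2. All 4 of these cells also had at least 20 Mip UMIs. In the other cells FMRFa_3 had at most 3 UMIs. Among neurons of like depth to the 4 cells, 7.24% to 17.3% had 10 or more FMRFa_3 UMIs.

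OK, the orcokinin precursor, reached 10 UMIs in 4 cells, 1 in each library that had Trissin cells. Its counts there were 39 UMIs in female replicate 2, 46 in cell 2 of female replicate 3, 29 in cell 1 of male replicate 1 and 12 in cell 2 of male replicate 2. The other 9 cells had 0 to 3 OK UMIs. Among neurons of like depth in the same libraries, 2.65% to 10.4% had 10 or more OK UMIs.

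Some companions were strong in single cells. AT, the allatotropin precursor, had 1108 UMIs in cell 2 of male replicate 1 and at most 3 in the others. Proc, the proctolin precursor, had 326 and 26 UMIs in cells 2 and 1 of female replicate 3 and 209 in cell 5 of male replicate 2. NPF, the neuropeptide F precursor, had 53 UMIs in cell 3 of male replicate 1. ILP_1, an insulin-like peptide gene, had 11 UMIs in cell 2 of male replicate 2.

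Cell 5 of male replicate 2 differed from the others. It was the only cell in which another precursor outnumbered Trissin, with 1327 UMIs of CCRFa_1 against 556 of Trissin. It held 10 other precursors at 10 UMIs or more, where the next highest number among the 13 cells was 4. The 37 neurons of like depth in that library had a median of 7, and 10.8% of them had 10 or more. At 22355 UMIs it lay at the 99.9th percentile of its library, and doublet calling did not mark it. Whether more than 1 cell gave this barcode was not tested.

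The Trissin cells were assigned to several clusters. Their transferred cluster numbers were 7 (5 cells from 3 libraries), 1 (4 cells from 3 libraries), and 0, 6, 9 and 35 (1 cell each). Precursor genes and markers had been left out of the genes used for clustering. Transferred numbers allow no new cluster and 13 cells are few, so these assignments cannot show whether the cells are of 1 type. A vote of the nearest annotated cells placed the 13 in 8 clusters, and a clustering made without the study's numbers placed them in 7. Both used the same genes and batch-corrected distances as the transfer, so neither is a separate check. Trissin cells were 0.309% of the 1618 cells of cluster 7 and 0.124% of the 3230 cells of cluster 1. Cell 4 of male replicate 2 was in cluster 35, which was put in no neuronal or glial class and in which Syt1 had a UMI in 58.8% of 119 cells. The other 12 were neurons by their cluster. Carrying numbers from annotated to held-out annotated cells recovered the cluster of 70.1% and the class of 99.4%. All annotated cells used here were from female replicate 3, so recall in the other libraries was not measured. Single assignments to clusters are less sure than those to classes. Recall was 63.8% to 100% for the 6 clusters of the Trissin cells, and 0% for 8 of the 42 annotated clusters. Only 2 of the 13 were themselves annotated cells, in clusters 1 and 6.

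Cluster levels were set by where these few cells fell. The highest mean was 2411 ± 5295 CPM in cluster 35 (SD, n = 5 libraries), followed by 937 ± 1341 in cluster 7, 595 ± 1313 in cluster 9 and 280.7 ± 358.4 in cluster 1. In each of these the SD was larger than the mean, and neighbours in the order did not differ beyond their spread. Cluster 35 had 11880 CPM in male replicate 2, where its Trissin cell was, and 0 to 122 CPM in the others. The 34 clusters without a Trissin cell had means from 0 to 75.1 CPM, with a median of 7.16. The 75.1 CPM of cluster 13 came from 2 UMIs in 51 cells, and none of its annotated cells was recovered when held out.

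Without the 13 cells the differences between clusters shrank. Cluster 7 fell to 6.22 ± 5.40 CPM, cluster 9 to 7.39 ± 8.95 and cluster 1 to 7.48 ± 7.62, against a median of 7.44 over all 40 clusters. Neurons as a class had 169.9 ± 143.0 CPM with the Trissin cells and 9.40 ± 10.4 CPM without them (SD, n = 5). The latter was in the range of glia, at 12.4 ± 10.8 CPM, and of hemocytes, at 10.1 ± 12.3 CPM. Without female replicate 2 the levels outside the 13 cells were 4.80 ± 1.64 CPM in neurons, 8.12 ± 5.69 in glia and 5.03 ± 5.50 in hemocytes (SD, n = 4).

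**Figure D3:**
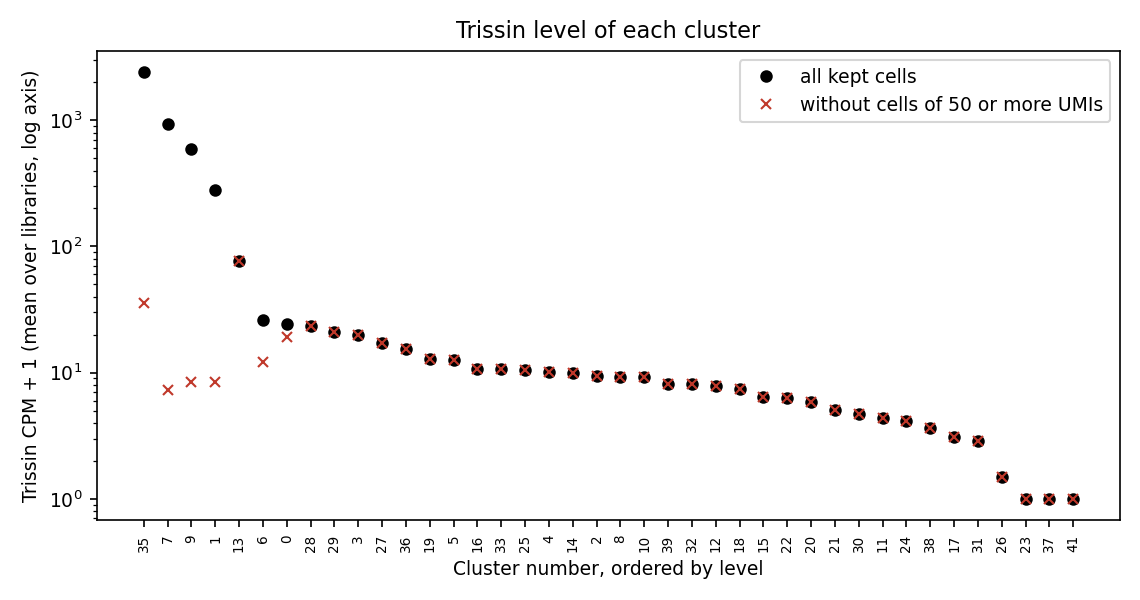
Mean Trissin CPM + 1 over libraries (vertical log axis) for 40 clusters in order of their level, with all kept cells (black points) and without the 13 Trissin cells (red crosses). Clusters 35, 7, 9 and 1 stand above 280 CPM with the Trissin cells and between 6.22 and 34.9 CPM without them.

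Low Trissin counts occurred in neurons, glia, hemocytes and fat body cells. In total 794 cells had 1 to 9 Trissin UMIs, and 703 of them had just 1. The share was 2.55% in neurons outside the 13 (exact interval 2.37 to 2.74, median depth 2698 UMIs), 2.34% in glia (1.39 to 3.67, 2071 UMIs) and 2.62% in hemocytes (1.79 to 3.70, 2252 UMIs). In fat body cells it was 0.847% (0.103 to 3.03), or 2 of 236 cells. Without female replicate 2 it was 1.85% in neurons, 2.03% in glia and 1.66% in hemocytes. After thinning to 2000 UMIs per cell, where 9541 neurons, 365 glia and 512 hemocytes were too shallow to enter, the shares were 1.38%, 1.24% and 1.79%, and all 3 intervals overlapped. Low counts in neurons were thus no more frequent than in glia and hemocytes beyond counting error, and they are not read here as expression. Their source was not tested. Intervals cover counting error only.

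Low Trissin counts were most frequent in female replicate 2. Its neurons had 1 to 9 Trissin UMIs in 6.51% of cells (5.79 to 7.29), its hemocytes in 5.74% (3.31 to 9.15) and its glia in 4.94% (1.36 to 12.2). Neurons of female replicates 1 and 3 were at 0.861% and 2.56%, and those of male replicates 1 and 2 at 2.30% and 1.18%. Summed over cells outside the 13, the level was 28.1 CPM in female replicate 2 (exact Poisson interval 25.3 to 31.1) and 2.91, 6.87, 5.69 and 4.06 CPM in the others, in the same order. This library had 1 Trissin cell among those kept, with 613 UMIs, while the male libraries with more Trissin cells had lower levels outside them. It also had 244 Trissin UMIs in barcodes that failed the quality limits, the most of the 5 libraries. Other precursors did not share this excess as a group. In hemocytes and glia combined Trissin was at 4.31 times the median of the other libraries there, while the 49 precursors with at least 20 UMIs in these cells had a median ratio of 0.59. The ratio was higher than that of Trissin for 6 of them, among them Cal_3 and Corazonin. The source of the excess was not tested.

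**Figure D4:**
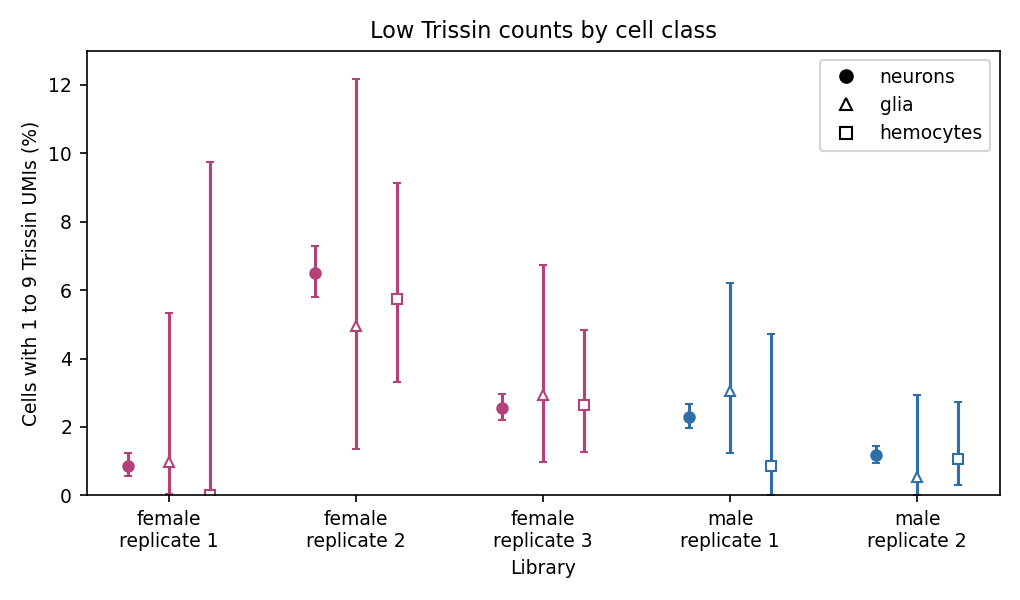
Percent of cells with 1 to 9 Trissin UMIs in neurons (filled circles), glia (open triangles) and hemocytes (open squares) of each library, without the 13 Trissin cells, with exact 95% binomial intervals. Female replicate 2 stands at 4.94% to 6.51% in the 3 classes, and within a library the intervals of the classes overlap.

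Library levels followed the Trissin cells. Over all kept cells the female libraries, replicates 1 to 3, had 2.91, 74.9 and 137.5 Trissin CPM. Male replicate 1 had 350.9 CPM and male replicate 2 had 276.5 CPM. Both male values were above the female ones. Of the Trissin UMIs, the 13 cells gave 62.5% in female replicate 2, 95.01% in female replicate 3, 98.4% in male replicate 1 and 98.5% in male replicate 2. A single cell of male replicate 1, with 6406 UMIs, held 26.5% of all Trissin UMIs, and without it that library was at 145.3 CPM. Fewer Trissin cells and less Trissin RNA per cell cannot be told apart in such sums.

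In the edgeR quasi-likelihood fit over 13875 genes Trissin was higher in males by 2.06 on the log2 scale (SE 1.00), with a Benjamini-Hochberg adjusted p of 1 in edgeR. That comparison called 0.0216% of the genes tested, and Trissin was not one of them. An exact permutation test of log2 CPM over the libraries gave p = 0.2. Outside the 13 cells the direction was the opposite, with a mean of 12.6 CPM in females and 4.87 CPM in males (exact permutation p = 0.7). The female libraries there had 2.91, 28.1 and 6.87 CPM, so that the mean rested on female replicate 2. A difference between the sexes was thus not shown.

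**Figure D5:**
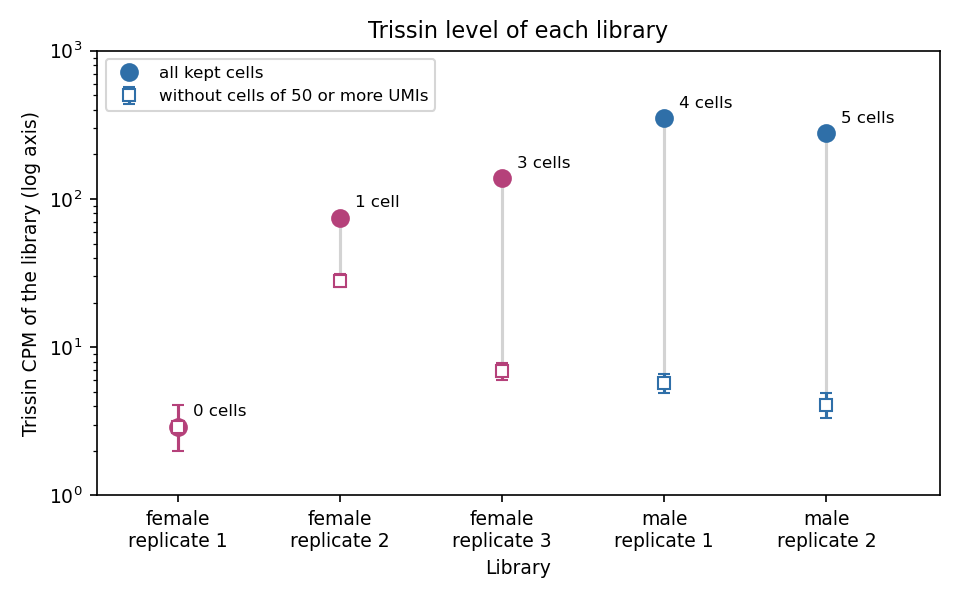
Trissin CPM of each library (vertical log axis) over all kept cells (filled circles) and without the Trissin cells (open squares, exact 95% Poisson intervals), with female libraries in pink, male libraries in blue and the number of Trissin cells beside each circle. The filled circles range from 2.91 to 350.9 CPM and the open squares from 2.91 to 28.1 CPM.

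A looser definition of Trissin-rich neurons, which gives enough cells for a test, mixed both kinds of cell. It takes neurons with at least 2 Trissin UMIs, since limits of 10 and 4 UMIs left 13 and 18 neurons. Of the 94 cells it finds, 82 are below 50 UMIs. They made up 0.0956%, 0.992% and 0.333% of neurons in the female libraries and 0.161% and 0.188% in the male libraries, with an exact permutation p of 0.7. Without female replicate 2 the female mean fell from 0.474% to 0.214%.

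Other genes were tested in these looser Trissin-rich neurons. In 4 libraries with 5 or more such cells, the 91 cells were compared with 25446 other neurons, with library as a block and Trissin left out. Of the 91 cells 79 had fewer than 50 Trissin UMIs, in the range that is not read here as expression, so the calls describe this grouping and not the 13 Trissin cells. Of 11169 genes 20 were higher (0.179%) and 76 were lower (0.68%) at an adjusted p below 0.05 in edgeR, together 0.86%. Without the block 0 were higher and 22 lower, with 607 genes in either direction at an unadjusted p below 0.05. With DESeq2 4 were higher, 2 of them among the 20, and 30 were lower.

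Of 60 precursors tested, 6 were higher and 32 lower, and their median log2 difference was -1.44 beside -0.24 over all genes. The summed groups held 11 to 43 Trissin-rich cells each. For the genes called lower, a median of 84.6% of the UMIs of other neurons lay in the 1% of those neurons with most of them. The part of this in the calls was not tested.

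Of the 20 higher genes, only 3 were higher in each of the 4 libraries. CCRFa_1 rose by 2.15 on the log2 scale (SE 0.22, edgeR adjusted p 1.12e-19), but 1327 of its 1901 UMIs were from cell 5 of male replicate 2. Without the 12 Trissin cells in the fit its difference was 1.10, and it was still called (edgeR adjusted p 0.00134). CCRFa_1 kept its call when each library was left out, and lost it with a limit of 1 UMI (0.71) or 4 UMIs (1.53). The unnamed gene evm.TU.CTG-1188.10 rose by 0.97 (SE 0.25, edgeR adjusted p 0.0142) and was present in 7 of the 12 Trissin cells in the fit. Its call was lost without male replicate 1 (0.96, edgeR adjusted p 0.0654), without male replicate 2 (0.56, 0.858) and without these 12 cells (0.29, 0.829). The unnamed fused model evm.TU.CTG-1321.3-evm.TU.CTG-1321.2 rose by 1.98 (SE 0.22, edgeR adjusted p 2.88e-17), and without female replicate 3 by 0.27, which did not pass. None of the 3 passed with DESeq2 or without the block, where their differences were 2.30 and 3.29 for CCRFa_1, 1.19 and 1.05 for evm.TU.CTG-1188.10, and 1.36 and 2.86 for the fused model.

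The 5 other precursors that passed were higher in 2 or 3 of the 4 libraries, and each lost its call when a single library was left out. Achatin had a log2 difference of 1.48, and 0.51 without male replicate 1. AstCCC, an allatostatin C type precursor, had 1.45, and 0.38 without female replicate 2. GPA2_1, a glycoprotein hormone subunit gene, had 1.64, and 0.07 without female replicate 3. KYMGLa had 1.10, and 0.19 and 0.68 without male replicate 1 or male replicate 2. ILP_1 had 2.5, and 2.34 and 1.36 without these same libraries.

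Most genes with the lowest p-values were other precursors. DH31_2, a diuretic hormone type precursor, was lower by a log2 difference of -4.99 (SE 0.25), with 301 CPM in Trissin-rich cells and 4285 CPM in other neurons. Against neurons of like depth (between the quartiles of UMI totals of the Trissin-rich cells of a library) its difference was -1.68. NPF, at -4.35 (SE 0.25), had 123 against 1634.7 CPM, and 54 of its 61 UMIs were from Trissin cells. CCRFa_2 (-6.16), PK_2 (-5.10), GnRH (-4.28), Ele_3 (-4.12), CCHa_2 (-6.18), RYa_3 (-3.46), CHH/ITP_2 (-3.77) and RYa_2 (-3.27) were lower in each library. So were 2 unnamed genes, evm.TU.CTG-1084.5 (-4.32) and evm.TU.CTG-1601.5 (-6.38). Against neurons of like depth the differences of GnRH, CHH/ITP_2 and evm.TU.CTG-1084.5 were -1.48, -1.83 and -1.93, those of CCRFa_2 and NPF were -4.71 and -3.29, those of RYa_3 and RYa_2 were -2.87 and -2.65, and all of these were called there too. In the same fit no gene of the marker and transmitter lists was higher among 36 tested, and CBPM_S1, a carboxypeptidase (-1.01), and Cadps (-0.75) were lower. The call of CBPM_S1 was lost without female replicate 3 (-0.69) or male replicate 2 (-0.77), and that of Cadps without male replicate 1 (-0.72) or male replicate 2 (-0.66). Neither passed with DESeq2.

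Trissin was among the precursors whose RNA was held by the fewest cells. Of the 71 precursors, 54 had at least 1000 UMIs in kept cells. Among these the 13 top cells of a gene held a median of 40.1% of its UMIs, and for Trissin 96.2%, the second largest value after EH_1, an eclosion hormone gene, at 97.1%. Next came CHH/ITP_1 with 95.2% and TK, the tachykinin precursor, with 94.8%. The number of 13 cells was taken from Trissin itself, which favours it here. By the share of UMIs in cells with 50 or more, Trissin was 8th of the 54, with 96.2% beside a median of 85.2%. In number of cells with 50 or more UMIs, 11 of the 54 had fewer than Trissin, among them EH_1 with 1, TK with 8 and CCHa_1 with 11. The median share of a cell's UMIs in such cells was 20.2% for Trissin, 35.3% for TK and 32.8% for CCAP_1.

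The genes around Trissin on the same contig were low or widespread in the 13 cells. The model before it, evm.TU.CTG-804.7, had 1 UMI in the 13 cells, and the model after it, evm.TU.CTG-804.9, had 8 UMIs in 1 of them. FGRL1_S2, a fibroblast growth factor receptor-like gene 2 models before Trissin, was present in 10 of the 13 cells. Its level there was 384 CPM (mean over cells, Trissin UMIs left out). Other neurons with at least 3000 UMIs, summed, had 299 CPM. Over the 5 libraries FGRL1_S2 ranged from 208 to 346 CPM, while Trissin ranged from 2.91 to 350.9 CPM.

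Over the 40 clusters the genes most like Trissin were 5 unnamed genes, led by evm.TU.CTG-666.4 with a Pearson r of 0.64 and evm.TU.CTG-632.22 with 0.64 (log2 of CPM + 1, mean over libraries, 12288 genes compared). The other 3 had r between 0.61 and 0.62. Of these 5 genes, 4 had no UMI in any of the 13 Trissin cells and evm.TU.CTG-632.22 had UMIs in 1. The clusters share libraries and depth, so the likeness is a description of cluster averages only.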

How the data were processed

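The deposited matrices hold raw UMI counts per gene and barcode, which the authors made with CellRanger 4.0.0 per the file headers. No values were normalised before deposit. Barcodes with 500 to 60000 UMIs, at least 200 genes, a ratio of log10 genes to log10 UMIs above 0.7 and a mitochondrial share below 40% were kept (Python 3.11.15). Cluster numbers of 1998 cells of female replicate 3 annotated by the study were spread to all kept cells. The spread ran over nearest neighbours after principal components and a batch correction. Leiden clustering and a doublet score (0.8% per 1000 barcodes called, 7.02% of cells) were also run. UMIs summed per library were tested with edgeR 4.0.16 (filterByExpr, TMM, quasi-likelihood test, Benjamini-Hochberg), and DESeq2 1.42.0 was an alternative. The edgeR step was tested on simulated data with 200 changed genes and a dispersion of 0.05. For males against females it recovered 45.9% of 2-fold and 97% of 4-fold changes, with 6 false calls. For Trissin-rich against other neurons it recovered 10.2% and 54.2%, with 2 false calls. With totals of kept cells from 11353727 to 34543696 UMIs per library, 3 UMIs corresponded to 0.0869 to 0.264 CPM.

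Genes named beside Trissin were the study's markers and precursors called in Trissin-rich neurons (up to 10 in each direction by p), up to 10 genes in each direction from all genes that were called and moved the same way in every library (unnamed ones up to 2), the contig neighbours, and the 5 genes most correlated with Trissin over clusters. Precursors with 10 UMIs in Trissin cells were named after their values were seen. The gene and all lists were chosen with earlier results of these data known. The labels do not say that the replicates were independent dissections, while the study calls them biological replicates, with brains dissected for each library. The p-values measure only the spread between libraries. No protein, promoter or genome sequence was used here.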

Additional observations from a re-analysis of the deposited data

Results flagged for a closer look

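Trissin was also counted in barcodes outside those kept, which entered only an alternative of the comparison of males and females. The 9088 barcodes outside the quality limits held 401 Trissin UMIs, in 323 of them, above the 3 counts that a count of 0 allows, and no such barcode had more than 7. Per library these were 16, 244 and 16 UMIs in female replicates 1, 2 and 3 and 26 and 99 UMIs in male replicates 1 and 2. Groups of 3 and 2 libraries are too small for the test of outlying libraries.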

How the results depend on the processing

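The male minus female log2 difference of Trissin (2.06) was positive in each setting run, 3.50 with a mitochondrial share under 20%, and from 1.49 to 2.70 when each library was left out. It passed the adjusted threshold only in the fit with a block. With the replicate number as a block it was 4.16 (adjusted p 0.0112). The labels do not say that the numbers pair the libraries, so this fit rests on a shared number only. Deviations of same-numbered libraries from the means of their sex had correlations of 0.0131 and 0.135. The deviations of the male libraries mirror each other, so these correlations cannot decide on a pairing. The share of Trissin-rich neurons (-0.299 percentage points, male minus female) changed sign with a limit of 4 UMIs (0.00492) and with 50 UMIs (0.0339, chosen after seeing the data), and ran from -0.488 to -0.0401 without single libraries, nearest to 0 without female replicate 2. The neuron level (169.9 CPM) was 7.11 without the Trissin-rich cells and 9.40 without the 13 cells, the latter chosen after seeing the data, and 120.9 to 211.6 without single libraries. Genes higher in Trissin-rich cells (20) numbered 11 with a limit of 1 UMI, 11 with 4 UMIs, 4 with DESeq2, and 0 without the replicate block (edgeR, 607 genes at an unadjusted p below 0.05), and 12 to 14 without single libraries, where the 12 without female replicate 2 and the 12 without male replicate 1 were all among the 20. Genes lower (76) numbered 30 with DESeq2, 22 without the replicate block and 59 to 82 without single libraries. Without the 12 Trissin cells in that fit, chosen after seeing the data, 14 were higher and 66 lower. Achatin (-0.52) and AstCCC (-1.47) turned negative with 4 UMIs and KYMGLa (-0.21) with 1 UMI. The causes were not tested. The comparison within the cluster holding most Trissin-rich cells was not run, since only 1 library had 5 such cells there. The number of cells limits the statement on female replicate 1, where 0 Trissin cells allow a share of up to 0.0910%.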

Other observations

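A few genes outside the precursors were frequent in the 13 Trissin cells. They are genes from the 10 most raised, over other neurons with at least 3000 UMIs, of those present in at least 8 of the cells, and were picked after their values were seen, so no test applies. Levels in the 13 cells are means over cells with Trissin left out, while those of the other neurons are of summed cells. First among the 10 was the unnamed gene evm.TU.CTG-1188.10, present in 8 cells from 4 libraries at 376 CPM, against 48.4 CPM in the 12712 other neurons, and its highest count in a cell was 6 UMIs. Besides Mip, the 10 held 2 genes with a name. DopEcR, a G-protein-coupled receptor for dopamine and ecdysteroids in Drosophila, was present in 9 cells at 307 CPM, and in 29.8% of the other neurons at 74.0 CPM. vih_S1, named for a ubiquitin-conjugating enzyme, was present in 12 cells at 1591 CPM, and in 81.2% of the other neurons at 446 CPM. Medians over the 13 cells were lower than these means, at 214.7 CPM for evm.TU.CTG-1188.10, 214.7 CPM for DopEcR and 1127 CPM for vih_S1.

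Of 120 genes that the study lists as transcription factors, Dsp1, H33_S1 and lilli_S2 were present in all 13 cells, but they were also present in 96.9%, 99.7% and 89.1% of the other neurons with at least 3000 UMIs. PSA6 was present in 12 of 13 cells at 325 CPM (mean over cells), and in 51.8% of those neurons at 136 CPM.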
